A study of Mus musculus with 19 samples.

Results

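Myelin is the lipid-rich sheath that oligodendrocytes wrap around axons in the central nervous system. The genes described here are 9 listed genes of myelin and of the mature oligodendrocyte, Mbp, Mog, Mag, Mobp, Cnp, Opalin, Ermn, Cldn11 and Mal. They were chosen by name and matched through their Ensembl identifiers to 2 deposited tables of normalised counts from mouse brain after bone marrow transplantation. All 9 were among the 15634 genes of the hippocampus table and 4, Mbp, Mag, Mobp and Cnp, were among the 13783 genes of the sorted-cell table.

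Every recipient received split-dose total-body irradiation of 1100 cGy and 5000000 T-cell-depleted (TCD) bone marrow cells. Grafts of the mice with chronic graft-versus-host disease (GVHD) also held 500000 splenic T cells, and those of the TCD mice, the controls without GVHD, held 0. On day 80, RNA was taken from whole hippocampus, giving 3 GVHD and 3 TCD libraries. On day 70, brain cells were isolated by cell sorting into 6 libraries of macrophages derived from donor marrow in GVHD mice, 4 of microglia of the GVHD host and 3 of microglia of the TCD host. All 19 libraries thus come from irradiated and transplanted mice, and strain and age were not given in the labels. The labels do not say whether each library was 1 mouse or a pool, so p-values measure the spread between these libraries, which may be in part technical.

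The hippocampus libraries held an estimated 16673616 to 18546934 reads and the sorted libraries 7901524 to 35844765. The 9 genes were well sampled in hippocampus, with 190 estimated reads for Opalin in the lowest library and 46670 for Mbp in the highest. In the sorted cells Mobp rested on 8 to 95 estimated reads a library, against 587 to 3709 for Cnp. TCD host library 1 is named Syn in its description, while its title says TCD, and no source explains Syn. It alone of the TCD host libraries has the lower of the 2 API numbers that the titles carry. Markers of the sorted cells lay on the side of their labels. In donor macrophages against GVHD host microglia, 7 of 7 macrophage markers were called higher and 8 of 9 microglia markers lower (limma, adjusted p under 0.05). Of all tested genes 19.4% were called higher and 19.2% lower in this comparison. The marker lists were chosen with earlier results of these data known.

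The genes lie on 8 chromosomes of the build GRCm38. Mbp (ENSMUSG00000041607) is on chromosome 18 at 82475146 to 82585637, with 16 annotated transcripts; the gene also gives the longer Golli forms, which the gene value does not separate. Opalin (ENSMUSG00000050121) is at 41061710 to 41077113 on chromosome 19, Mog (ENSMUSG00000076439) at 37010743 to 37023398 on chromosome 17 and Mag (ENSMUSG00000036634) at 30899176 to 30914873 on chromosome 7. Cnp (ENSMUSG00000006782), at 100574904 to 100591729 on chromosome 11, shares 154 exon bases with Dnajc7 on the other strand. Whether strand was used in the authors' counting is not given in the sources used here, so reads of that overlap cannot be told apart. The same holds for Ermn, which shares 237 exon bases with Galnt5. Ermn and Mal are both on chromosome 2, Mobp on chromosome 9 and Cldn11 on chromosome 3.

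Compact myelin is held together by basic proteins on the inner face of the membrane. Mbp encodes myelin basic protein, which brings the cytoplasmic faces of the sheath together, and Mobp a smaller basic protein of compact myelin. Mog and Mag encode immunoglobulin-type proteins of the outer surface of the sheath and of the membrane that faces the axon. Cnp encodes a phosphodiesterase of the non-compact cytoplasmic channels, Cldn11 the claudin of the tight junctions between myelin layers, and Mal a proteolipid of membrane transport. Opalin is a transmembrane protein and Ermn a cytoskeletal protein, both characteristic of mature oligodendrocytes. Transcription of myelin genes in oligodendrocytes depends on the factors Olig2, Sox10 and Myrf.

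A window of 250 bases before the RefSeq start (GRCm38.p6) was found for 8 of the 9 genes, and bases inside an annotated transcript were cut off, which left 240 bases for Mag and 215 for Mobp and Cnp. The letters CTGGCAC or CTGGTAC, a core bound by Myrf, were searched on both strands and stood in 3 of the 8 windows, those of Mog, Mag and Cnp. They were in 5.9% of 32851 mouse windows of 250 bases. The Sox letters ACAAAG or ACAATG were in 5 of 8, those of Mag, Mobp, Cnp, Opalin and Ermn, and in 25.2% of all windows. The E-box letters CAGCTG or CATATG, of the kind Olig2 binds, were in 0 of 8 and in 16.1% of all windows. No match overlapped another. A match is a description of letters and not a measured binding site. The 3 windows with Myrf letters are shown, with that of Opalin, which had the largest fold change of the 9 in hippocampus, on the gene's own strand and with matches in capitals. Mog is chr17:37023399-37023648 on the minus strand, Mag chr7:30914874-30915113 on the minus strand, Cnp chr11:100574689-100574903 on the plus strand and Opalin chr19:41077114-41077363 on the minus strand.
Mog: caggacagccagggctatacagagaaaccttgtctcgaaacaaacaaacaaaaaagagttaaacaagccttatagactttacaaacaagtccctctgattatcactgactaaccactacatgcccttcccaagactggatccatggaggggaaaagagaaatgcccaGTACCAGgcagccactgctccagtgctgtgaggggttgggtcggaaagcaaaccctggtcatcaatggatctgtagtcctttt
Mag: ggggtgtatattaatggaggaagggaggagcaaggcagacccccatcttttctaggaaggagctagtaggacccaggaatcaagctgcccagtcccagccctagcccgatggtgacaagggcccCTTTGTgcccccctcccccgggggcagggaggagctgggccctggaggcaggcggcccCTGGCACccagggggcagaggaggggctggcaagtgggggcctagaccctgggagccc
Cnp: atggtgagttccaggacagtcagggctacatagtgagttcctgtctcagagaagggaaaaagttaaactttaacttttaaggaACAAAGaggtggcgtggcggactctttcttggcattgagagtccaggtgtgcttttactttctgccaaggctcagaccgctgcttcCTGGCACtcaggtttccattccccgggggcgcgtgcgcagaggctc
Opalin: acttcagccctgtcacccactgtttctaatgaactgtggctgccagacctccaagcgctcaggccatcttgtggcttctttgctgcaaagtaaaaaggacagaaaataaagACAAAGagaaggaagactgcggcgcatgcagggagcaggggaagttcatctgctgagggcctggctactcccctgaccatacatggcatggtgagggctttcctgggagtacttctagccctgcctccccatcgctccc
The Myrf letters began 83 bases before the start in Mog, 68 in Mag and 81 in Cnp. The Sox letters began 126 bases before it in Mag, 167 in Cnp and 139 in Opalin. In Mobp, whose window is not shown, they occurred 6 times.

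In hippocampus, the fitted fold change of GVHD over TCD mice was above 1 for 9 of 9 genes, from 1.22 for Mbp to 1.67 for Opalin, but no gene passed the test across all genes. Of all tested genes 51.0% had a fold change above 1. The median log2 fold change of the 9 was 0.44, against 0.0048 over all 14404 tested genes. With limma and Benjamini-Hochberg adjustment over all genes, 0 of 9 were called at an adjusted p under 0.05, where 0.479% of all genes were called. At an unadjusted p under 0.05, 6 of 9 passed, against 17.0% of all genes. The libraries of GVHD and TCD mice did not overlap for 3 of the 9, Mog, Opalin and Ermn, against 24.0% of all genes in either direction and 10.8% in this direction. In whole tissue, a change in the number of cells of a type and a change in RNA per cell cannot be told apart.

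Opalin, a transmembrane protein of the mature oligodendrocyte, had normalised counts of 20.8, 24.1 and 31.6 in GVHD hippocampus libraries 1, 2 and 3, against 14.4, 18.7 and 11.6 in TCD hippocampus libraries 1, 2 and 3. Its lowest GVHD library lay above its highest TCD library. The log2 fold change was 0.74 ± 0.19 (SE, 95% interval 0.30 to 1.18, limma adjusted p = 0.116).

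Mbp, the basic protein of compact myelin, stood at 1995, 2352 and 2738 in GVHD libraries 1, 2 and 3, against 2005, 2238 and 1591 in TCD libraries 1, 2 and 3. GVHD library 1 was below TCD libraries 1 and 2, so the groups overlapped. Its log2 fold change of 0.28 ± 0.15 (SE, 95% interval -0.07 to 0.63, limma adjusted p = 0.394) was the smallest of the 9. Mobp, also of compact myelin, had 591, 732 and 864 in GVHD libraries and 587, 624.8 and 411 in TCD libraries. Its groups overlapped too, with GVHD library 1 close to TCD library 1, and the log2 fold change was 0.44 ± 0.18 (SE, limma adjusted p = 0.265).

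Of the surface proteins, Mog had 43.7, 44.2 and 54.3 in GVHD libraries, against 36.1, 43.2 and 28.3 in TCD libraries. Its groups did not overlap, but GVHD library 1 and TCD library 2 were nearly level, and the log2 fold change was 0.41 ± 0.15 (SE, limma adjusted p = 0.228). Mag had 95.5, 113 and 119 in GVHD libraries and 92.0, 102 and 68.3 in TCD libraries. GVHD library 1 fell within the TCD values, and the log2 fold change was 0.33 ± 0.15 (SE, limma adjusted p = 0.301).

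For the membrane and junction genes, Cldn11 had 136, 148 and 165 in GVHD libraries, against 103, 137 and 86.4 in TCD libraries. TCD library 2 lay just above GVHD library 1, and the log2 fold change was 0.48 ± 0.15 (SE, limma adjusted p = 0.177). Mal had 180, 207 and 289 in GVHD libraries and 161, 195 and 121 in TCD libraries, overlapping in the same way. Its log2 fold change was 0.50 ± 0.20 (SE, limma adjusted p = 0.263).

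Cnp, the enzyme of the cytoplasmic channels, had 265, 283 and 337 in GVHD libraries, against 246, 288 and 186 in TCD libraries. TCD library 2 exceeded 2 of the 3 GVHD libraries, and the log2 fold change was 0.31 ± 0.16 (SE, limma adjusted p = 0.353). Ermn, the cytoskeletal protein, had 76.1, 82.1 and 109 in GVHD libraries and 60.3, 76.1 and 54.2 in TCD libraries. GVHD library 1 and TCD library 2 were level, at 76.09 and 76.07, and the log2 fold change was 0.48 ± 0.16 (SE, limma adjusted p = 0.182).

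**Figure D1:**
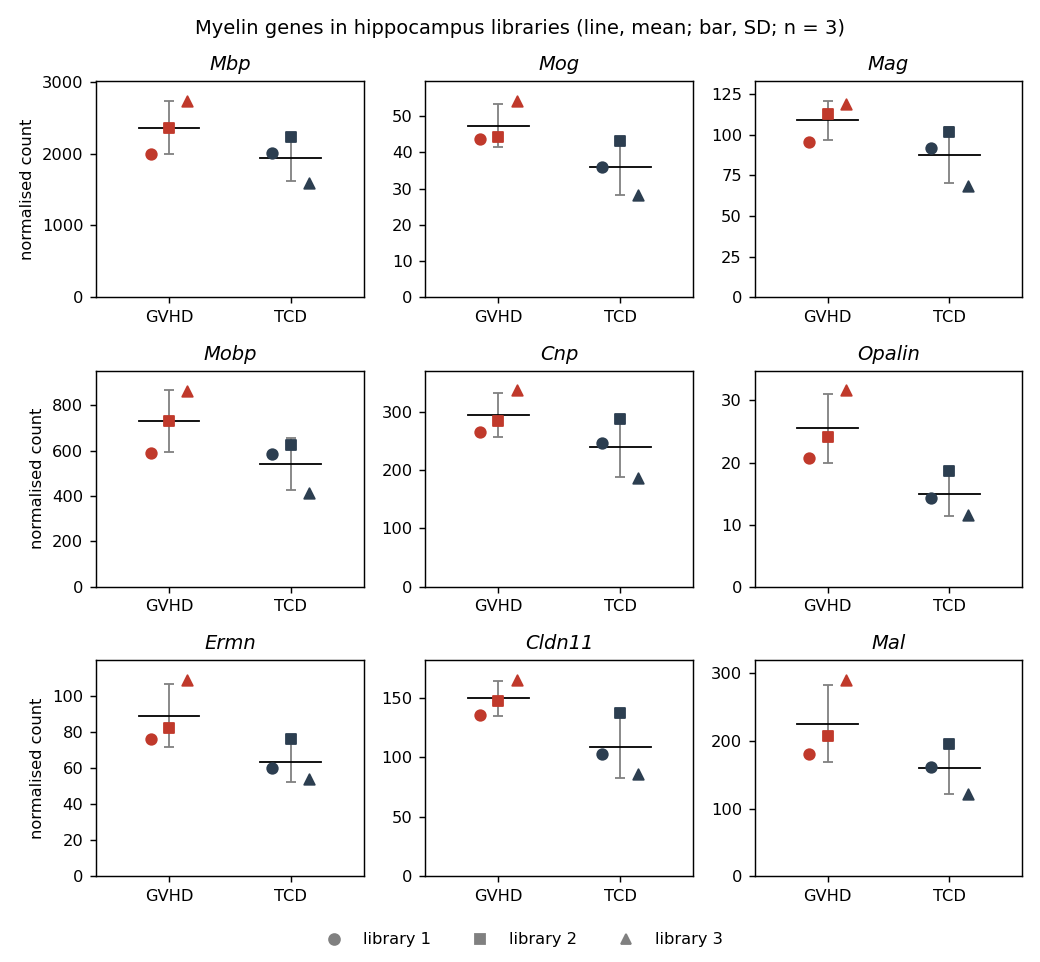
Normalised count (y axis, from 0) of each of the 9 genes in the 3 GVHD and 3 TCD hippocampus libraries; marker shape gives the library number, horizontal lines the mean and vertical bars the SD. GVHD library 3 is the highest and TCD library 3 the lowest point for all 9 genes.

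The same 2 libraries set the range of every gene. GVHD library 3 was the highest and TCD library 3 the lowest of the 6 for 9 of 9 genes, as for 5.48% of all tested genes. Within a group the 9 genes also varied more than most genes. The highest over the lowest library ran from 1.21 to 1.61 in GVHD (median 1.37, against 1.18 for all genes) and from 1.40 to 1.61 in TCD (median 1.53, against 1.22). The residual SD of the 9 genes on the log2 scale had a median of 0.26, against 0.14 for all tested genes. Without TCD library 3 the median log2 fold change of the 9 was 0.25, and without GVHD library 3 it was 0.30, and each gene stayed above 0 in both.

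The 9 genes moved together from library to library. Over the 6 libraries, which include both groups, the correlations of their log2 values ran from 0.89 to 0.99 in the 36 pairs, with a median of 0.96. The mean standardised level of the 9 was 0.03, 0.53 and 1.32 in GVHD libraries 1, 2 and 3 and -0.52, 0.20 and -1.57 in TCD libraries 1, 2 and 3. TCD library 2 thus stood above GVHD library 1. The genes outside the list most like this mean, by Pearson correlation over 6 libraries, were Mocs2 (0.994), Tspan2 (0.991), Irf7 (0.990), Gpr37 (0.990), Mboat1 (0.989), Pls1, Oxsr1, Fam167a (0.986 each), Plekhg3 (0.985) and Sept4 (0.984). Tspan2, a myelin tetraspanin, Gpr37, a receptor of oligodendrocytes, and Sept4 were among the oligodendrocyte lists below.

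Divided by Mbp of the same library, per kilobase of exon, the other 8 genes varied less than their levels did. The coefficient of variation over the 6 libraries was 18.1% to 35.4% for their levels. For the ratio to Mbp it was 4.63% in Cnp and 4.69% in Mag, the lowest, and 19.9% in Opalin, the highest. These coefficients pool both groups. The Opalin ratio was 0.0295 to 0.0332 in GVHD and 0.0206 to 0.0240 in TCD libraries. The ratios of Mobp, Ermn and Mal also lay higher in GVHD without overlap, by narrow margins. Those of Mog, Mag, Cnp and Cldn11 overlapped. The lowest GVHD and highest TCD ratios were 0.3664 and 0.3621 for Mobp, 0.0813 and 0.0793 for Ermn, and 0.2679 and 0.2657 for Mal. Mbp, the denominator, had the smallest log2 fold change of the listed myelin genes (0.28), so these ratios lean toward GVHD by construction. The share of all genes with such a separation was not computed. Group differences of these ratios were not tested.

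**Figure D2:**
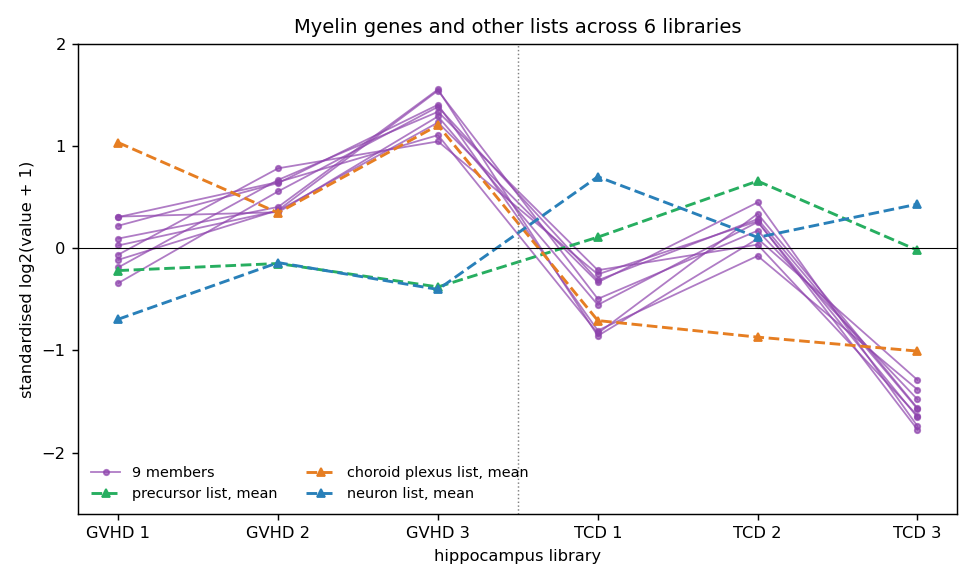
Standardised log2(value + 1) (y axis, in SD over the 6 libraries) of the 9 genes and of the mean of the precursor, choroid plexus and neuron lists in each hippocampus library (x axis). The 9 genes trace 1 profile that peaks in GVHD library 3 and is lowest in TCD library 3, with TCD library 2 above GVHD library 1 for most of them.

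Levels were set in order per kilobase of annotated exon. In GVHD hippocampus Mbp was highest at 279 ± 43.9 per kb, then Mobp at 106 ± 19.9, and Mal (81.1 ± 20.6), Cnp (81.1 ± 10.3) and Cldn11 (80.0 ± 7.84) followed within their spread (SD, n = 3). Mog (27.8 ± 3.51), Mag (26.8 ± 2.94) and Ermn (24.5 ± 4.78) formed a lower group that did not differ beyond its spread, and Opalin was lowest at 8.66 ± 1.88. TCD hippocampus gave Mbp 230 ± 38.7, Mobp 79.0 ± 16.6, Cnp 66.0 ± 14.1, Cldn11 58.2 ± 13.8 and Mal 57.3 ± 13.3, then Mag 21.5 ± 4.23, Mog 21.0 ± 4.40, Ermn 17.5 ± 3.11 and Opalin 5.06 ± 1.21 (per kb, SD, n = 3). Both orders thus had Mbp and Mobp at the head and Opalin at the foot.

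Other genes of the sheath and the mature cell lay mostly on the same side, again with none called. Most followed the library profile of the listed myelin genes, so the counts below are not separate observations. Over the 6 libraries of both groups, correlations with the mean of those genes had medians of 0.85 (sheath and junction), 0.83 (lipid) and 0.89 (mature cell). The lowest values were -0.74, 0.41 and -0.08 in the same order. Of 18 other sheath and junction proteins, 15 had a positive log2 fold change and 6 an unadjusted p under 0.05 in either direction, with a median of 0.22. Those with the smallest p were Tspan2 (0.48, limma adjusted p = 0.164), the connexins Gjc3 (0.43, limma adjusted p = 0.183) and Gjb1 (0.39, limma adjusted p = 0.222), and Anln (0.34, limma adjusted p = 0.285). All 10 tested genes of myelin lipid metabolism were positive, 4 with an unadjusted p under 0.05 (median 0.25). Of 18 other genes of mature oligodendrocytes, 16 were positive and 8 had an unadjusted p under 0.05 (median 0.36), and for 6 of them the GVHD libraries lay above all TCD libraries. Of all tested genes 51.0% were positive, 17.0% had an unadjusted p under 0.05 in either direction, and for 10.8% the GVHD libraries lay above all TCD libraries.

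Elovl7, a fatty acid elongase, had 34.1, 23.9 and 40.4 in GVHD libraries, against 14.7, 17.2 and 13.3 in TCD libraries. The groups did not overlap, and the log2 fold change of 1.05 ± 0.18 (SE, limma adjusted p = 0.0546) exceeded that of each of the 9. Unlike the 9, and like the choroid plexus sum given below, Elovl7 was lowest among GVHD libraries in library 2. Its correlation with the mean of the 9 was 0.81. Aspa, the enzyme that breaks down N-acetylaspartate, had a log2 fold change of 0.68 ± 0.20 (SE, limma adjusted p = 0.156), and Ugt8a, the galactosyltransferase of cerebroside synthesis, 0.38 ± 0.15 (SE, limma adjusted p = 0.251). In the mature cell list Dock5 (0.62, limma adjusted p = 0.0812), Tmem98 (0.70, limma adjusted p = 0.0867), Trf, the iron carrier transferrin (0.67, limma adjusted p = 0.107), and Gsn, the actin-severing protein gelsolin (0.40, limma adjusted p = 0.121), had the smallest p.

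The lists of lineage factors and of earlier stages had medians near or below 0. Of 8 lineage transcription factors 5 were positive (median 0.05, and -0.14 to 0.19 when any 1 library was left out), and none was called. An unadjusted p under 0.05, found for 17.0% of all tested genes, was found for 2, Olig1 and Olig2, both with a negative log2 fold change. Sox10 was at 43.4 ± 3.16 in GVHD and 41.9 ± 7.81 in TCD hippocampus (SD, n = 3, log2 fold change 0.06, limma adjusted p = 0.847). Myrf was at 46.5 ± 4.53 in GVHD and 44.8 ± 9.81 in TCD hippocampus (SD, n = 3, log2 fold change 0.07, limma adjusted p = 0.855). Olig2 was at 26.1 ± 1.92 in GVHD and 33.2 ± 5.11 in TCD hippocampus (SD, n = 3, log2 fold change -0.33, limma adjusted p = 0.218), and the log2 fold change of Olig1 was -0.32 (limma adjusted p = 0.227).

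Of 7 genes of newly formed oligodendrocytes 3 were positive (median -0.13), and for 3 the GVHD libraries lay below all TCD libraries, as for 13.2% of all tested genes. Gpr17, the receptor that marks cells about to mature, had 35.3, 36.0 and 37.4 in GVHD libraries, against 51.8, 49.7 and 44.2 in TCD libraries (log2 fold change -0.41 ± 0.09, SE, limma adjusted p = 0.0731). Tcf7l2, a factor of the same stage that also marks thalamic neurons, had 2.59, 2.84 and 2.52 in GVHD libraries and 5.70, 4.87 and 4.53 in TCD libraries (log2 fold change -0.72 ± 0.15, SE, limma adjusted p = 0.0712). For both genes every GVHD library lay below every TCD library, but neither passed the test across all genes.

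Of 9 tested genes of oligodendrocyte precursors 3 were positive (median -0.12). Pdgfra, the growth factor receptor that defines these cells, had a log2 fold change of -0.01 ± 0.08 (SE, 95% interval -0.20 to 0.18, limma adjusted p = 0.959). C1ql1 had 5.18, 5.11 and 5.04 in GVHD libraries, against 11.4, 9.20 and 8.19 in TCD libraries (log2 fold change -0.78 ± 0.14, SE, limma adjusted p = 0.0577). No other of the 9 precursor genes had an unadjusted p under 0.05.

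**Figure D3:**
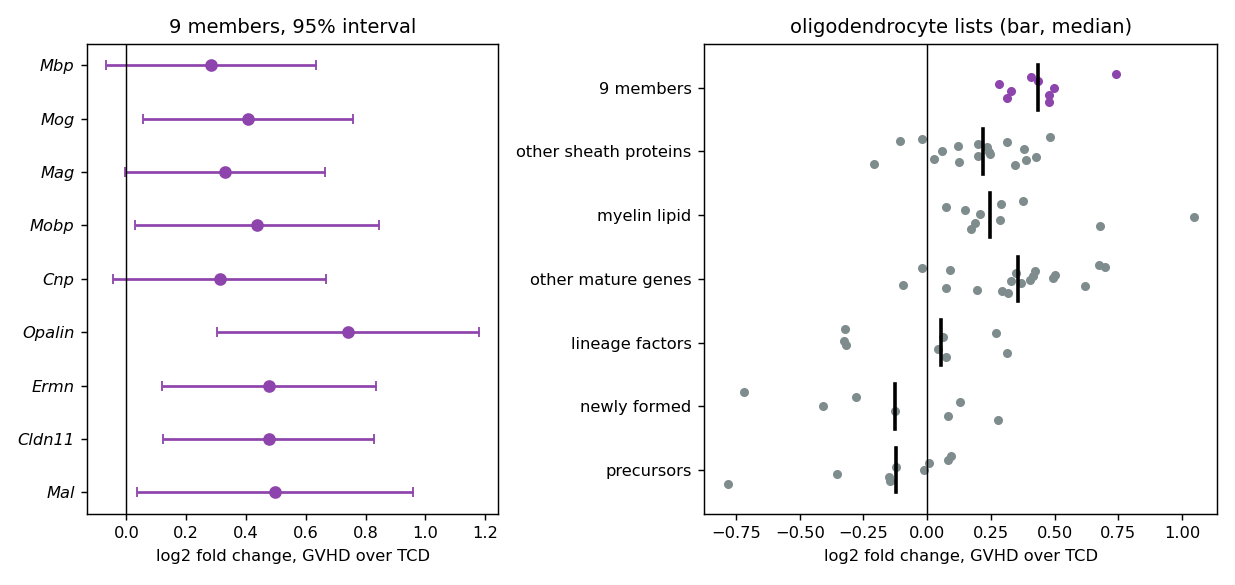
Left, log2 fold change (x axis, GVHD over TCD hippocampus) of each of the 9 genes with its 95% interval. Right, log2 fold changes of the genes of each oligodendrocyte list (1 point a gene), with the median as a bar: medians lie at 0.44 for the 9 genes, 0.22, 0.25 and 0.36 for the other sheath, lipid and mature cell lists, 0.05 for lineage factors, and -0.13 and -0.12 for newly formed cells and precursors.

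Markers of neighbouring tissue differed between the same libraries. The summed normalised counts of 17 choroid plexus markers were 3389, 1118 and 3917 in GVHD libraries 1, 2 and 3, against 117, 50.6 and 33.9 in TCD libraries 1, 2 and 3, and 14 of 16 tested were called higher. Like the 9 genes, the choroid sum was highest in GVHD library 3 and lowest in TCD library 3; unlike them, it was lowest among GVHD libraries in library 2. The correlations of the 16 tested choroid genes with the mean of the 9, over the 6 libraries of both groups, ran from 0.65 to 0.82 (median 0.73). The 11 thalamic markers summed to 222, 249 and 322 in GVHD libraries and 146, 222 and 210 in TCD libraries, with 0 of 10 tested called. Of these 10, 7 were positive and 3 negative (median log2 fold change 0.22), and 3 had an unadjusted p under 0.05 by limma, against 17.0% of all tested genes. For 2 the GVHD libraries lay above all TCD libraries, against 10.8% of all tested genes, and for 1 below them, against 13.2%. Correlations of 9 of them with the mean of the 9 genes ran from -0.77 to 0.85 (median 0.38). The 14 neuron markers summed to 13177, 13642 and 13414 in GVHD libraries, against 16944, 14696 and 15015 in TCD libraries, with 0 called and a median log2 fold change of -0.20. Of these 14, 3 were positive and 11 negative, and 7 had an unadjusted p under 0.05 by limma, against 17.0% of all tested genes. For 8 the GVHD libraries lay below all TCD libraries, against 13.2% of all tested genes, and for 1 above them. Genes of axons in white matter had a median log2 fold change of -0.01 (8 tested, 0 called). Of the 5 Schwann cell markers Pmp2 and Ncmap were not in the hippocampus table. The other 3, Prx, Drp2 and Egr2, were tested with 0 called, 2 positive and a median log2 fold change of 0.27. By limma 1 had an unadjusted p under 0.05, against 17.0% of all tested genes. For 1 the GVHD libraries lay above all TCD libraries, against 10.8% of all tested genes. The part of these markers in the values of the 9 genes was not tested.

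The sorted cells ask how much RNA of these genes comes with brain macrophages and microglia, cells that are known to take up myelin. The 2 tables were normalised separately, so levels are compared only as ratios within a library. Mog, Opalin, Ermn, Cldn11 and Mal were not in the sorted-cell table, nor were Sox10, Olig1, Olig2 and Myrf, and Vcan alone of the 10 precursor genes was. Mbp and Mobp were higher in donor macrophages than in GVHD host microglia, while Mag and Cnp did not pass. With limma, 2 of 4 genes were called higher, where 19.4% of all tested genes were called higher, 19.2% lower and 38.6% in either direction. The other oligodendrocyte lists went both ways in this comparison. Of 8 tested sheath genes 2 were called higher and 4 lower, and of 5 lipid genes 3 higher and 0 lower. Of 11 mature cell genes 4 were called higher and 1 lower, and of 3 newly formed cell genes 0 higher and 2 lower. St18, the 1 lineage factor tested, was called lower, and Vcan higher.

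Mbp had normalised counts of 25.9 to 44.0 in the 6 donor macrophage libraries, with a median of 30.3, and 17.8, 16.6, 18.1 and 19.3 in GVHD host microglia libraries 1 to 4. All donor libraries lay above all GVHD host libraries, as for 13.3% of all tested genes. The log2 fold change, fitted with the API number of the titles as a covariate, was 0.85 ± 0.19 (SE, 95% interval 0.44 to 1.26, limma adjusted p = 0.00325). It was called in each of the 22 alternative settings run, with adjusted p from 0.000498 to 0.0203.

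Mobp was low, at 1.84 to 6.98 in donor libraries with a median of 2.31, against 2.46, 1.52, 0.765 and 1.93 in GVHD host libraries 1 to 4. The groups overlapped, and donor library 1 was far above the other donor libraries, which reached 2.70. The log2 fold change was 0.61 ± 0.19 (SE, limma adjusted p = 0.0198). This call rested on few libraries. It was lost without donor library 1 (0.51, limma adjusted p = 0.0636), without GVHD host library 1 (0.46, limma adjusted p = 0.0801) and without GVHD host library 3 (0.50, limma adjusted p = 0.0747). It was also lost without the API covariate (0.53, limma adjusted p = 0.244) and within the higher API number (0.45, limma adjusted p = 0.107). The same held with the replicate block by description number (0.67, limma adjusted p = 0.0626). Over 21 alternatives the adjusted p ran from 0.00765 to 0.244, and the gene was called in 14.

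Mag ran from 22.6 to 37.4 in donor libraries with a median of 27.5, and was 29.8, 40.6, 40.2 and 33.4 in GVHD host libraries 1 to 4. The donor median was below every GVHD host library, though the ranges overlapped. The log2 fold change was -0.36 ± 0.14 (SE, 95% interval -0.66 to -0.06, limma adjusted p = 0.0590), and the gene was called lower without donor library 5 (-0.44, limma adjusted p = 0.0114) and with quantile normalisation (-0.46, limma adjusted p = 0.0159). Its adjusted p ran from 0.0114 to 0.197 over 22 alternatives. Cnp ran from 68.1 to 138 in donor libraries with a median of 73.8, against 72.5, 82.5, 78.1 and 76.6 in GVHD host libraries 1 to 4. Here the groups overlapped fully, with a log2 fold change of 0.19 ± 0.18 (SE, 95% interval -0.20 to 0.58, limma adjusted p = 0.433).

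Between GVHD and TCD host microglia 0 of 4 genes were called (limma, 0 at an unadjusted p under 0.05), where 0.107% of all tested genes were called and 6.85% had an unadjusted p under 0.05. Mbp was at 17.8, 16.6, 18.1 and 19.3 in GVHD host libraries 1 to 4, against 28.1, 8.81 and 14.0 in TCD host libraries 1, 2 and 3, so that TCD host library 1 lay above and libraries 2 and 3 below every GVHD host library. The log2 fold change of Mbp was 0.27 ± 0.22 (SE, 95% interval -0.22 to 0.75, limma adjusted p = 0.886), and it ran from -0.0332, without TCD host library 2, to 0.57 when 1 library was left out. Mobp was at 2.46, 1.52, 0.765 and 1.93 in GVHD host libraries, against 2.68, 0.483 and 0.966 in TCD host libraries. Mag was at 29.8, 40.6, 40.2 and 33.4 in GVHD host libraries, against 31.8, 34.2 and 32.2 in TCD host libraries. Cnp was at 72.5, 82.5, 78.1 and 76.6 in GVHD host libraries, against 129, 68.2 and 70.9 in TCD host libraries. For these 3 genes the groups overlapped. The log2 fold changes were 0.31 for Mobp (95% interval -0.16 to 0.79), 0.11 for Mag (-0.25 to 0.47) and -0.10 for Cnp (-0.56 to 0.36), so all 4 intervals span 0. That of Cnp ran from -0.18 to 0.17 when 1 library was left out.

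Donor macrophages were also set against TCD host microglia, a comparison that shares its libraries with the 2 above. Again 2 of 4 genes were called higher by limma, where 18.4% of all tested genes were called higher and 37.0% in either direction: Mbp (1.11 ± 0.21, SE, limma adjusted p = 0.00106) and Mobp (0.93 ± 0.21, SE, limma adjusted p = 0.00332). Mobp was not called without the API covariate (0.76, limma adjusted p = 0.124). Mag (-0.25, limma adjusted p = 0.239) and Cnp (0.09, limma adjusted p = 0.768) did not pass. For Mbp, TCD host library 1 lay within the donor range and libraries 2 and 3 below it.

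The 3 libraries with the lower API number are donor library 1, GVHD host library 1 and TCD host library 1. In donor macrophages that library was the highest for Mbp (44.0, against 25.9 to 34.6 in the other 5), Mobp (6.98, against 1.84 to 2.70) and Cnp (138, against 68.1 to 111), but not for Mag. In TCD host microglia it was the highest for Mbp, Mobp and Cnp, and in GVHD host microglia for Mobp. Within the higher API number alone Mbp was called higher in donor macrophages than in GVHD host microglia (log2 fold change 0.71, limma adjusted p = 0.00485).

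**Figure D4:**
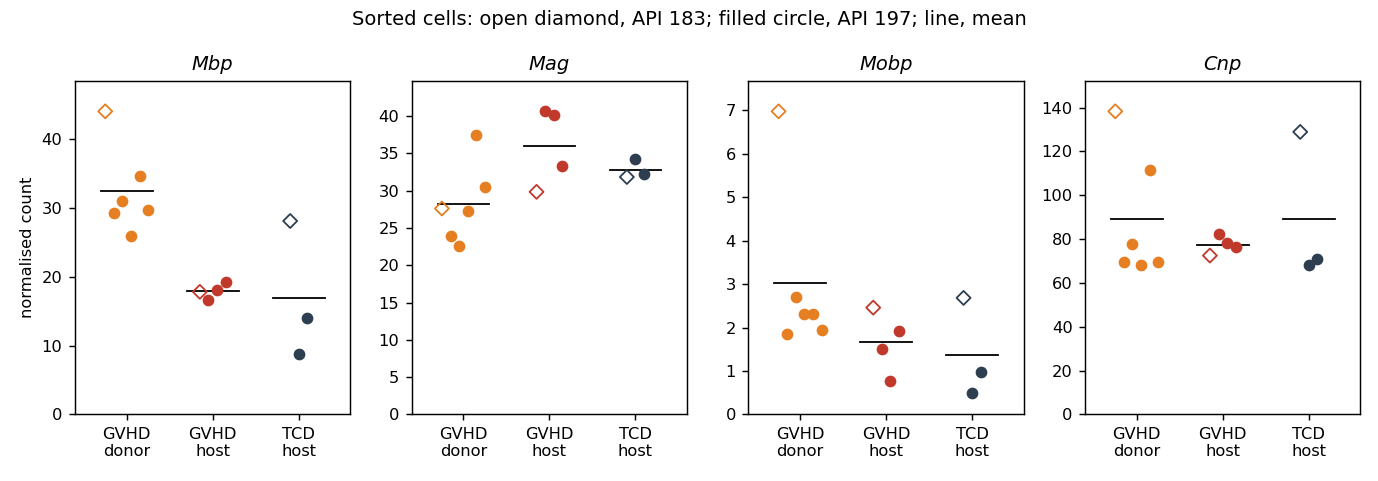
Normalised count (y axes, from 0) of Mbp, Mag, Mobp and Cnp in donor macrophages of GVHD mice, host microglia of GVHD mice and host microglia of TCD mice; 1 point a library, open diamonds the lower and filled circles the higher API number, lines the mean. For Mbp every donor point lies above every GVHD host point, and for Mbp, Mobp and Cnp the donor library of the lower API number is the highest donor point.

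In the sorted cells the 4 genes did not stand in the proportions of hippocampus. Per kilobase of exon, donor macrophages held Cnp at 24.5 ± 8.01, Mag at 6.93 ± 1.30, Mbp at 3.82 ± 0.750 and Mobp at 0.440 ± 0.287 (SD, n = 6). GVHD host microglia held Cnp at 21.3 ± 1.13, Mag at 8.84 ± 1.30, Mbp at 2.12 ± 0.133 and Mobp at 0.243 ± 0.104 (SD, n = 4). TCD host microglia held Cnp at 24.5 ± 9.43, Mag at 8.05 ± 0.313, Mbp at 2.00 ± 1.18 and Mobp at 0.201 ± 0.169 (SD, n = 3). The order Cnp, Mag, Mbp, Mobp was thus the same in the 3 groups. In hippocampus, by contrast, Mbp was first and Mag last of these 4.

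The ratio to Mbp per kilobase within a library puts this in numbers. For Cnp it had a median of 9.24 over the 13 sorted libraries, against 0.286 over the 6 hippocampus libraries, a factor of 32.3. For Mag it was 2.36 in sorted cells and 0.0951 in hippocampus, a factor of 24.8. Mobp differed in the other direction, with 0.1075 in sorted cells and 0.364 in hippocampus, a factor of 0.295. For each of the 3 genes the sorted and hippocampus ranges did not overlap. Among the sorted groups the Cnp ratio was 5.48 to 7.499 in donor macrophages, 9.24 to 11.6 in GVHD host microglia and 10.7 to 18.0 in TCD host microglia, so all donor libraries lay below all host libraries. The Mag ratio was 1.31 to 2.25 in donor macrophages, 3.49 to 5.10 in GVHD host microglia and 2.36 to 8.08 in TCD host microglia, again with the donor libraries lowest. The Mobp ratio was 0.0781 to 0.196 in donor macrophages, 0.0522 to 0.171 in GVHD host microglia and 0.0678 to 0.118 in TCD host microglia, and the 3 groups overlapped. These ratios are a description, with no test. Their denominator, Mbp, was itself higher in every donor library than in every GVHD host library. The lower donor ratios of Cnp and Mag are thus not separate from the Mbp values.

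**Figure D5:**
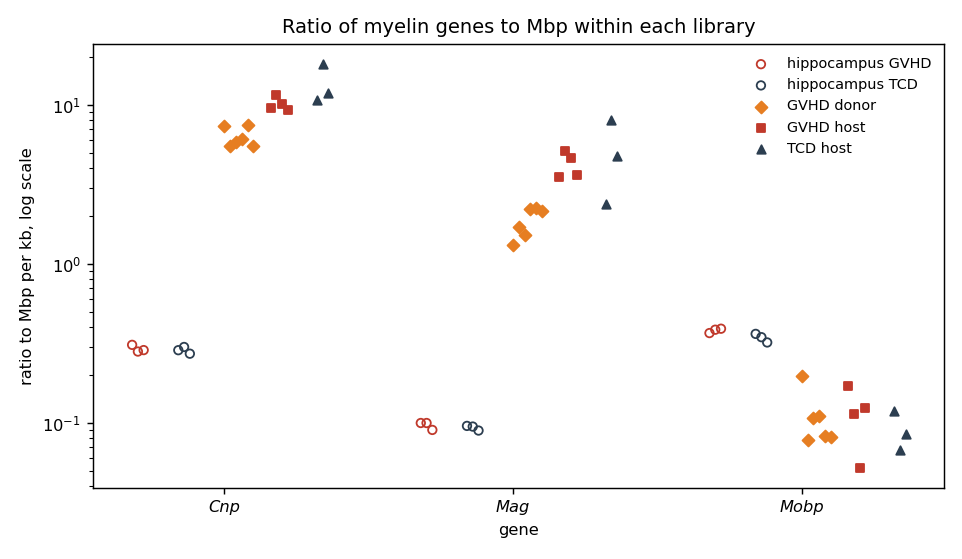
Ratio of Cnp, Mag and Mobp to Mbp, each per kilobase of exon, within each library (y axis, log scale), for GVHD and TCD hippocampus (open circles) and for donor macrophages, GVHD host microglia and TCD host microglia. All sorted points of Cnp and Mag lie above the hippocampus points, by factors of 32.3 and 24.8 between medians, and those of Mobp lie below them.

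Among themselves the 4 genes were less alike in sorted cells, with correlations of -0.48 to 0.83 in 6 pairs over 13 libraries of unequal depth (median 0.34). The genes outside the list most like their mean there were Snd1 (0.942), Fads1 (0.941) and Josd2 (0.937). Cd22, an immunoglobulin-type lectin gene that lies 18834 bases from Mag on the same strand, ran from 45.2 to 137 in donor macrophages, 14.0 to 25.6 in GVHD host microglia and 9.60 to 29.0 in TCD host microglia, and was thus highest where the Mag median was lowest. Dnajc7, which overlaps Cnp, ran from 176 to 205 in donor macrophages, 227 to 313 in GVHD host microglia and 237 to 255 in TCD host microglia.

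Most of the astrocyte and neuron markers in the sorted libraries did not pass between donor macrophages and GVHD host microglia. Of 7 astrocyte markers tested, 1 was called higher and 1 lower by limma, where 19.2% of all tested genes were called lower. Gfap, the astrocyte filament, averaged 16.3 ± 5.95 in donor macrophages (SD, n = 6) and 6.01 ± 1.05 in GVHD host microglia (SD, n = 4) and was called higher (log2 fold change 1.30, limma adjusted p = 0.000206). Slc1a3, a glutamate transporter, averaged 29.1 ± 10.04 in donor macrophages and 358 ± 51.2 in GVHD host microglia and was called lower (log2 fold change -3.63, limma adjusted p = 7.81e-08). The log2 fold changes of Gja1, Slc1a2, Aldoc, Aldh1l1 and Sox9 ran from -0.15 to 0.22 and did not pass. Of 5 neuron markers tested, 2 were called lower and 0 higher by limma. Snap25, a synaptic protein, averaged 1.36 ± 0.289 in donor macrophages and 2.94 ± 1.12 in GVHD host microglia and was called lower (log2 fold change -0.72, limma adjusted p = 0.0188). So was Camk2a, a neuronal kinase, at 5.20 ± 0.866 in donor macrophages and 9.33 ± 2.73 in GVHD host microglia (log2 fold change -0.72, limma adjusted p = 0.00652). Nefl (-0.09, limma adjusted p = 0.799), Map2 (0.09, limma adjusted p = 0.770) and Thy1 (0.14, limma adjusted p = 0.550) did not pass. The 5 neuron markers in the table, of 14, summed to 9.21 to 14.8 in donor macrophages, 13.8 to 22.4 in GVHD host microglia and 6.52 to 8.57 in TCD host microglia. The 8 astrocyte markers in the table, of 10, summed to 48.7 to 87.4 in donor macrophages, 339 to 449 in GVHD host microglia and 248 to 302 in TCD host microglia, most of it Slc1a3 in both host groups. Against TCD host microglia, donor macrophages had 2 of 5 neuron markers called higher and 0 lower by limma. Of 7 astrocyte markers 3 were called higher and 1 lower, where 18.4% of all tested genes were called higher and 18.6% lower. All 5 neuron and 7 astrocyte markers had a positive log2 fold change of GVHD over TCD host microglia. By limma 4 of each had an unadjusted p under 0.05, against 6.85% of all tested genes. Of these, 1 astrocyte marker was called, as for 0.107%. The part of RNA from other brain cells in the Mbp and Mobp values was not tested.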

How the data were processed

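The deposited values are normalised counts, used here as a signal per gene and library that the authors made from stranded RNA libraries. Per the submitters' processing notes cutadapt 1.9, STAR 2.5.2a, RSEM 1.2.30 and the build GRCm38 were used; their roles and the scaling are not given in the sources used here. Library totals of this signal were 982114.4 to 1078635.6 in hippocampus and 890564.5 to 1090630.5 in sorted cells. In each library 68.4% to 81.9% of low values were whole multiples of the smallest step (tolerance 0.02 of a step), so whole counts could not be recovered and no count test was run; total divided by step estimates the reads.

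Genes were matched to a GENCODE annotation of GRCm38, with 182 and 203 identifiers unmatched. Values were transformed as log2(value + 1), which understates changes of low genes. A gene entered the test with a value of 1 or more in 3 or more libraries (14404 genes of the hippocampus table, 13086 of the sorted table). Tests used limma 3.58.1 in R 4.3.3 (mean-variance trend, two-sided, Benjamini-Hochberg over all tested genes, called at an adjusted p under 0.05), and the models were tested on simulated data. The hippocampus model held just the group. All 13 sorted libraries shared 1 model of group and API number, since both numbers occur in each group. Levels per kb use the summed length of annotated exons.

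Donor and GVHD host libraries with the same description number had correlations of deviations of 0.166 to 0.394 (4 pairs). Those with other numbers had -0.345 to 0.404. Donor and TCD host libraries, which come from different mice, had 0.308 to 0.585 at the same title number (3 pairs). At other title numbers they had -0.582 to 0.532. The ranges overlap, so these values do not establish a pairing, and no shared animal is stated. The genes, the other lists and the tests were chosen with earlier results of these data known. Named were the 9 genes, up to 4 genes with the smallest p of a list, fixed markers and the genes most like the mean of the 9. Some listed genes are not reported here. Ratios to Mbp were added after the data were seen. C1ql1, Gfap, Dnajc7 and Cd22 were named under these or as neighbours after their values were seen. Alternatives changed the pseudocount, filter, scaling, variance trend, GC content, replicate block, API term and libraries.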

Additional observations from a re-analysis of the deposited data

Results flagged for a closer look

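Of 8 sets of values looked at (4 genes in donor macrophages and in GVHD host microglia), 1 held a library far from the rest of its group: Mobp in donor macrophage library 1, at 6.98, against 1.84 to 2.70 in the other 5 donor libraries. Chance sets about 1 in 20 such groups apart. The library has the lower of the 2 API numbers, which the other donor libraries do not, and it was also the highest donor library for Mbp and Cnp. Without it the log2 fold change of Mobp against GVHD host microglia was 0.51 (limma adjusted p = 0.0636).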

How the results depend on the processing

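In hippocampus no gene of the 9 was called, and none changed sign, in any of the 16 alternatives. The count of all called genes, 69, was 39 with quantile normalisation, 45 with a GC correction, 0 without the variance trend (2343 at an unadjusted p under 0.05, by limma), and 0 to 123 leaving out 1 library. With the replicate block it was 16, and 11 with the block and the GC correction; title numbers do not pair these libraries (correlations -0.18 to -0.04).

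Between donor macrophages and GVHD host microglia 2 genes of the 4 were called. The count was 1 with the replicate block by title or by description number, no API covariate, or the higher API number alone. It was 1 to 3 leaving out 1 library. With the filter at 5 Mobp was not tested, and 1 of the 3 genes tested was called. Against TCD host microglia 1 was called with no API covariate, and 1 of 3 tested with the filter at 5, where Mobp was again not tested. The block changed no other call of the 4. The log2 fold change of Cnp against GVHD host microglia ran from -0.0260 (without GVHD host library 1) to 0.27 leaving out 1 library, and was -0.0216 in the higher API number alone. Against TCD host microglia it ran from -0.0167 (without donor library 1) to 0.24. Between host microglia that of Cnp ran from -0.18 to 0.17, above 0 without GVHD host library 1 or TCD host library 1, and was 0.18 in the higher API number alone; that of Mbp ran from -0.0332 (without TCD host library 2) to 0.57. The 14 genes called there became 0 with the replicate block (479 unadjusted, by limma), 1 in the higher API number alone, 0 with only the 2 groups fitted (978 unadjusted) and 6 to 28 leaving out 1 library. The cause was not tested. Depth limits Mobp in sorted cells, at 8 to 95 estimated reads.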
